A study of Rattus norvegicus with 17 samples.

Results

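The nuclear-encoded subunits of the oxidative phosphorylation complexes were examined in the hippocampus of adolescent rats whose dams had received ethanol or a control diet during gestation. Genes were taken by symbol: those that begin with Ndufa, Ndufb, Ndufc, Ndufs or Ndufv and a number, the 4 Sdh genes, and those that begin with Uqcr, with Cox and a subunit number from 4 to 8 plus a letter, or with Atp5. Of 34322 genes in the count table, 90 symbols matched and 86 had a mean of 10 or more counts over the 17 libraries. The 4 that fell short were Cox8c, Cox7b2, Ndufb4l1-ps1 and Cox6c-ps1, with mean counts of 0.059, 0.90, 0.059 and 0.039. The lowest that passed were Cox6a2 at 11.4, Cox8b at 15.1, Cox6b2 at 24.3 and Ndufb1 at 27.9. By complex, the 86 comprised 38 genes of complex I, 4 of complex II, 8 of complex III, 18 of complex IV and 18 of complex V. Ndufa4 and Ndufa4l2 were placed in complex IV, where the Ndufa4 protein is now assigned despite its name. Ndufa13-ps1, Ndufa10l1, Cox7a2l2 and Atp5hl1 are, by their symbols, a pseudogene and like copies of subunit genes, with which they may share reads.

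All animals were Long-Evans rats, and RNA came from 1 hippocampus of each. Dams of the ethanol group (ET) drank a liquid diet with 6.7% ethanol throughout gestation (gestational day 0 to 20), and pair-fed dams (PF) received matched amounts of the liquid diet without ethanol. Dams of the third group (AD) ate chow ad libitum. The offspring of each diet came from 1 litter, so litter and diet cannot be told apart. There were 5 ET, 6 PF and 6 AD libraries, of which the study left out 1 from each group. The comparisons here used its final 4 ET, 5 PF and 5 AD libraries, and single values are given in the order ET replicates 1, 3, 4 and 5, PF replicates 1, 2, 3, 11f5 and 6, and AD replicates 1, 2, 3, 5 and 6. The PF males 11f5 and 11f6 are called by their animal names, since the labels do not tie these animals to a replicate number.

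Oxidative phosphorylation makes most of the ATP of neurons. Complex I (NADH dehydrogenase) and complex II (succinate dehydrogenase) pass electrons to ubiquinone, complex III (cytochrome bc1) passes them to cytochrome c, and complex IV (cytochrome c oxidase) passes them to oxygen. The proton gradient that complexes I, III and IV build drives complex V (ATP synthase). Most subunits are encoded in the nucleus and imported, while a core set of complexes I, III, IV and V is encoded in mitochondrial DNA. The mitochondrially encoded subunits were not analysed here.

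Total counts per library ran from 10853947 to 17498392. The 86 genes together took between 0.678% (ET replicate 3) and 0.946% (ET replicate 1) of the counted fragments, with Wilson 95% intervals of 0.6734 to 0.6817% and 0.9412 to 0.9518%. These intervals cover counting error only. Markers of hippocampal neurons summed to between 100718 and 135204 normalized counts in every library. The 3 libraries left out by the study (ET replicate 2, PF replicate 11f6 and AD replicate 4) had choroid plexus markers that summed to 127894, 138218 and 150596, against at most 23176 elsewhere. AD replicate 6 carried pineal markers that summed to 13310 normalized counts, against at most 45.6 in the ET and 17.9 in the PF libraries. The PF columns differed from the others in another way: 39 genes had 5 or more normalized counts in all 6 PF libraries and 0 in all ET and AD libraries, while 0 genes were so confined to ET or AD and 0 were absent from 1 diet alone. None of the 39 is a subunit gene, and 19 of the 29 found in the GRCr8 annotation overlap another gene there. Of all genes tested in ET against PF and found there, 6688 overlap another gene and 7982 do not. Whether the PF libraries were counted in another way was not tested, and diet, litter and such a difference cannot be told apart. A bulk sample does not separate fewer cells of a type from less RNA per cell.

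Since transcripts of these genes moved together between libraries, as described next, the sequences before their start sites were searched for the cores of 3 motifs known in promoters of respiratory genes. RefSeq promoter windows (GRCr8, 250 bases before to 50 after the start) were at hand for 74 of the 86 genes. The NRF1 core CGCATGCG, which reads the same on both strands, was in 7 of the 74 windows (9.46%) and in 1.66% of all 33469 windows. The ETS core CCGGAAG, bound by GABP, was found on either strand in 21 of the 74 (28.4%) and in 8.75% of all windows. A YY1 core, GATGGCGGC, was in 8 of the 74 (10.8%) and in 1.12% of all, each time on the gene's strand no more than 36 bases into the transcript. Any of the 3 was present in 30 of the 74 (40.5%) and in 10.9% of all windows. Of 62 windows of mitochondrial ribosomal proteins, 9.68% held the NRF1 core, 33.9% the ETS core and 12.9% the YY1 core, and of 65 windows of cytosolic ribosomal proteins, 1.54%, 29.2% and 1.54% did. Genes expressed in these libraries hold the cores more often than the average gene: of 14108 windows of genes tested in ET against PF, 3.00% held the NRF1 core, 14.4% the ETS core and 2.21% the YY1 core. A match is a description of letters and not of binding. The windows below show NRF1 cores (capitals) that lie before the start, for 4 subunits of complex V and 1 of complex III, followed by ETS cores (capitals) of 3 genes whose values are given further on.
Atp5mc2 (chr7:135678256-135678283, minus strand): gctctagtcgCGCATGCGcagagccttc
Atp5po (chr11:44657524-44657551, minus strand): cgccgacgcgCGCATGCGctctggcatc
Atp5me (chr14:1464775-1464802, plus strand): tgcgctacggCGCATGCGctttcctggc
Atp5pf (chr11:37375253-37375280, minus strand): ggccaaagcaCGCATGCGtacagtgcag
Uqcrc1 (chr8:118468175-118468202, plus strand): ctccaccctgCGCATGCGtagcgcggct
Uqcrq (chr10:38089984-38090010, minus strand): tccgctcctcCCGGAAGtgacgtgcaa
Cox8a (chr1:213833664-213833690, minus strand): ttccgaaataCTTCCGGgctgaggcgt
Atp5mk (chr1:255922089-255922115, minus strand): aagggggtgtCTTCCGGtcgggccgag

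The larger differences in subunit transcripts lay between libraries of the same diet. For each gene, the log2 normalized count (with 0.5 added) in a library was taken relative to the gene's mean over the 17 libraries, and the median over the 86 genes was taken per library. This median was 0.22 in ET replicate 1, where 81 of the 86 genes were above their own mean, and -0.24 in ET replicate 3, where 8 of the 86 were. Both belong to the ethanol group. The other ET libraries of the final set were at -0.02 and 0.00. PF libraries ran from -0.14 (replicate 3) to 0.09 (replicate 6) and AD libraries from -0.09 (replicate 3) to 0.11 (replicate 6), so the 3 diets overlapped. Taken by complex, the medians lay between 0.21 and 0.23 in ET replicate 1 and between -0.30 and -0.21 in ET replicate 3. ET replicate 3 was the lowest library for all 5 complexes and ET replicate 1 the highest for complexes I, II, III and V, while complex IV was highest in PF replicate 6 at 0.25. The 30 genes with a motif core had a median of 0.23 in ET replicate 1 and -0.26 in ET replicate 3, and the 44 without one had 0.21 and -0.22.

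**Figure D1:**
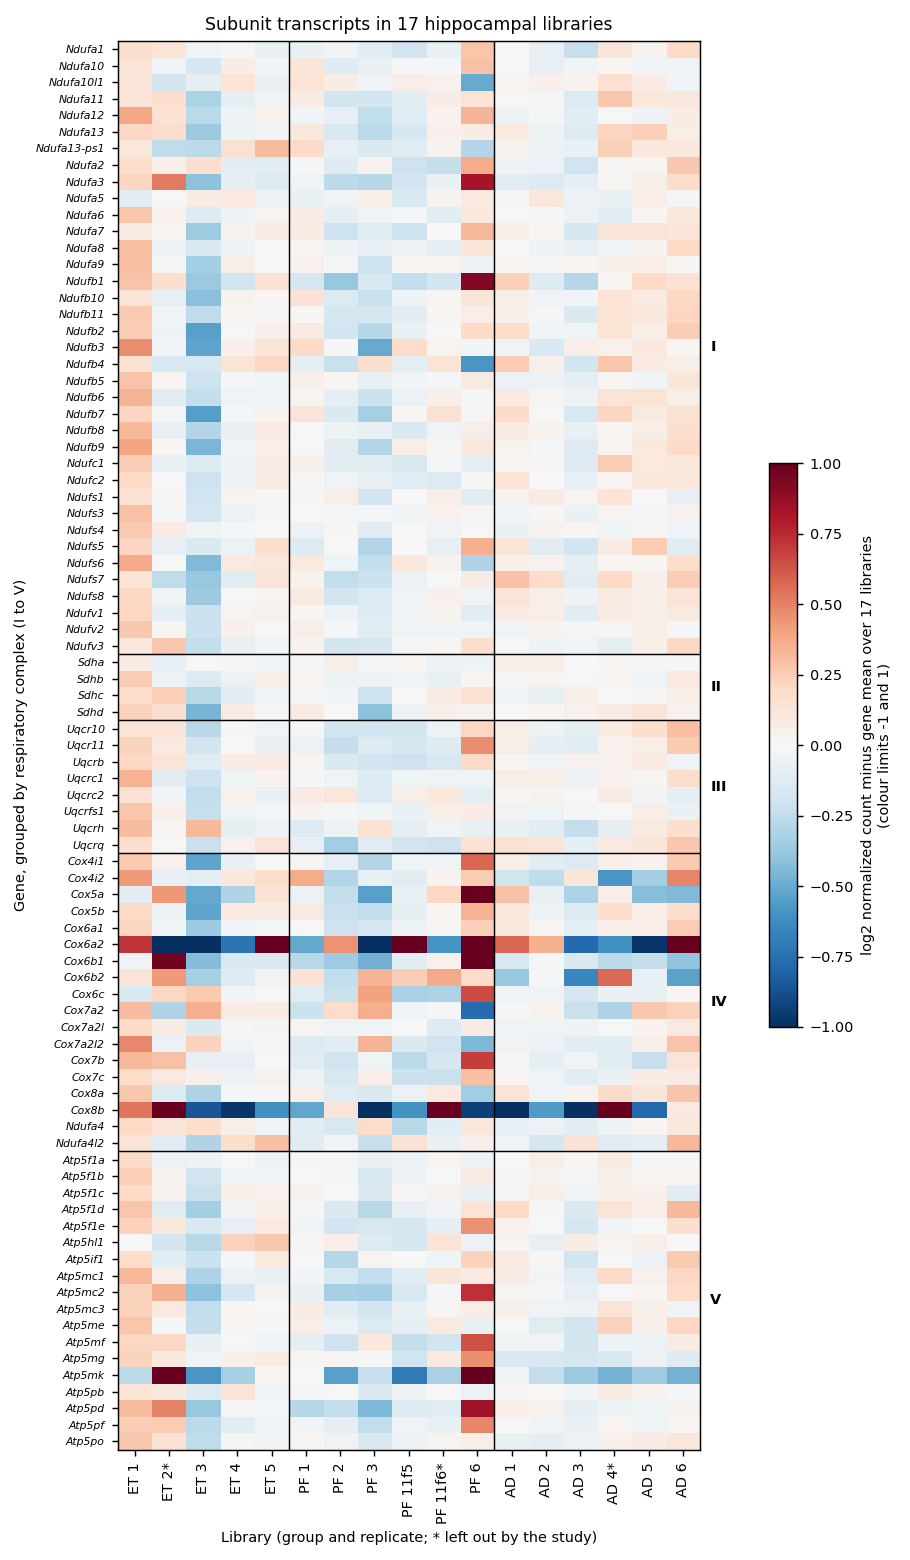
Log2 normalized count of 85 of the 86 genes (rows, grouped by complex I to V) in each of the 17 libraries (columns, grouped by diet), relative to the gene's mean over the 17, with colours limited at -1 and 1. ET replicate 1 is above the mean for 81 of all 86 genes and ET replicate 3 for 8, and single cells stand out in PF replicate 6.

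Other gene lists had the same 2 libraries at their ends. The 76 mitochondrial ribosomal proteins had a median of 0.21 in ET replicate 1 and -0.18 in ET replicate 3, the 86 cytosolic ribosomal proteins 0.17 and -0.20, and the 25 citrate cycle and electron carrier genes 0.17 and -0.10. For the 44 assembly factors the values were 0.13 and -0.13. The regulators of mitochondrial biogenesis did not follow this order, with a median of -0.08 in ET replicate 1, their lowest, and -0.01 in ET replicate 3. Prox1, a transcription factor that marks dentate granule neurons, had its lowest normalized count of the 17 libraries in ET replicate 1 (110.0) and its highest in ET replicate 3 (680.0). PF replicate 3, with the second-highest Prox1 (657), had a subunit median of -0.14, and AD replicate 6, with the second-lowest (246), had 0.11. Between these ends the 2 measures did not go in opposite order throughout: AD replicate 5 and PF replicate 6 had 498 and 442 for Prox1 with subunit medians of 0.05 and 0.09, and PF replicates 2 and 11f5 had 336 and 315 with -0.10 and -0.06. Fibcd1, a marker of CA1 pyramidal neurons, was also lowest in ET replicate 1 at 955 normalized counts, with the other libraries between 1426 and 2935. Wfs1, also a CA1 marker, did not share this, with 2879 in ET replicate 1 and lower values in PF replicate 1 (2626) and PF replicate 11f6 (2440.3). The end libraries stood at the ends for other cell markers too. ET replicate 1 had the highest oligodendrocyte sum (349203) and the highest count of the interneuron marker Pvalb (1078), and ET replicate 3 had the lowest Pvalb (435). Pvalb is 1 of 4 interneuron markers listed, and their sum put neither library at an end. The sum was 6119 in ET replicate 1 and 5300 in ET replicate 3. Its lowest value was in ET replicate 2 (4486) and its highest in AD replicate 4 (6128). ET replicate 3 also had the highest sums of thalamus and habenula (2809.9) and astrocyte markers (67002) and the lowest of endothelium and pericytes (3423). The part of the regional and cellular makeup of the dissected tissue in the order of the subunit medians was not tested.

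**Figure D2:**
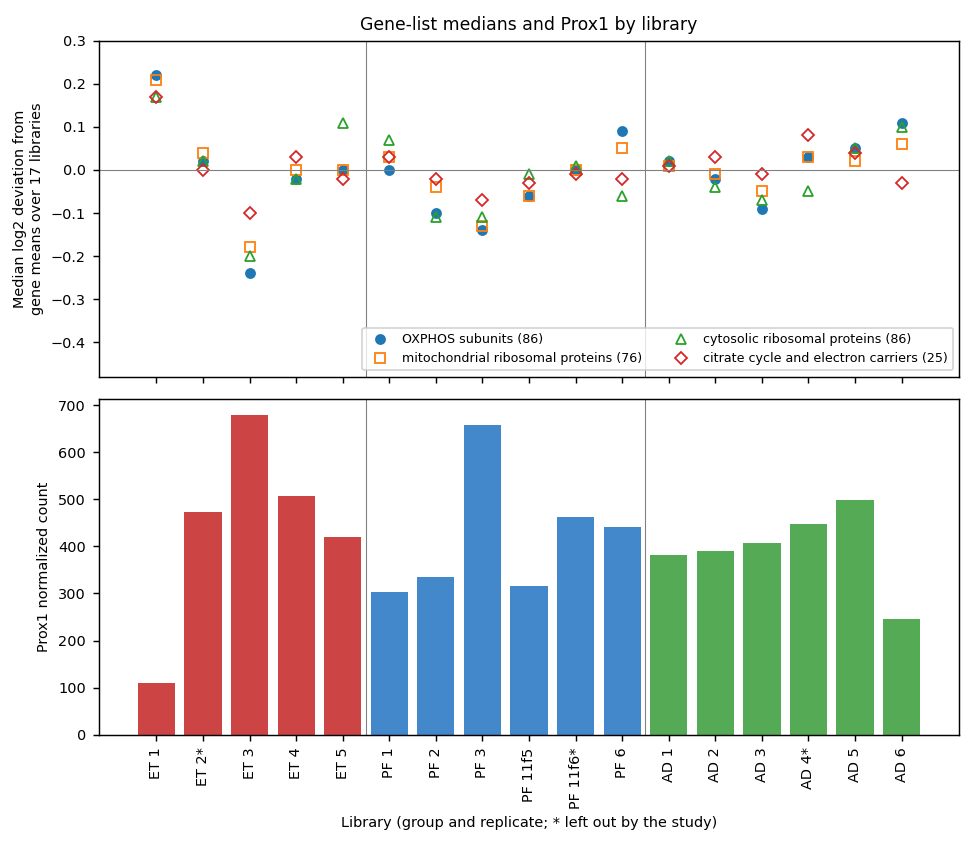
Median log2 deviation from the gene means over 17 libraries for 4 gene lists (upper panel) and normalized count of Prox1 (bars, lower panel), by library; the number of genes stands in the legend. ET replicate 1 has the highest subunit median (0.22) and the lowest Prox1 (110.0), and ET replicate 3 the lowest median (-0.24) and the highest Prox1 (680.0).

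A few genes went another way. In ET replicate 3 and PF replicate 3, the 2 libraries with the lowest subunit medians, 74 genes were below their mean in both and 8 were above it in both: Cox7c, Ndufa4, Ndufa5, Uqcrh, Cox6c, Cox7a2, Cox7a2l2 and Ndufa2. Cox6c, a small membrane subunit of complex IV, had 820 normalized counts in ET replicate 3 and 906 in PF replicate 3, against 616 in ET replicate 1. Cox7a2l2 read 1305 and 1408 in the same libraries but 1555 in ET replicate 1. At the other end, 5 genes were not above their mean in ET replicate 1, namely Cox6b1, Atp5mk, Ndufa5, Cox6c and Cox5a. Sdha, the flavoprotein subunit of complex II, was the steadiest of the 86: its normalized counts ran from 3674 to 4084 over all 17 libraries, a 1.11-fold range. Of 11259 genes with a mean count of 100 or more, 0.435% had a smaller range, while the median range was 1.4-fold over those genes and 1.5-fold over the 75 subunit genes among them. Within diet groups, the median SD of the tested subunit genes was 0.17 on the log2 scale, beside 0.16 over all genes tested, and 0.15 beside 0.12 among genes with a mean count of 100 or more.

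The comparison of ET with PF addresses the ethanol in the diet with the liquid diet and restricted amount held alike. Here 85 of the 86 genes could be tested, since Cox8b fell to the low-count filter. None of the 85 was called at an adjusted p below 0.05 by edgeR's quasi-likelihood test, where 4.13% of all 16068 genes tested were. None had an unadjusted p below 0.05 either (11.9% of all genes), DESeq2, which gave a p for 84 of the 86, also called 0 with 0 at an unadjusted p below 0.05 (7.99% of all genes), and at the study's threshold (adjusted p below 0.01 and a log2 fold change beyond 1.5) 0 were called beside 2.17% of all genes. The share of all genes called depended on overlap with other genes: it was 6.19% of 6688 genes that overlap another in GRCr8 and 1.32% of 7982 that do not, so the members' 0 stands beside a lower share for the 54 of them without an overlap. The median log2 fold change was 0.04 (62 genes above 0 and 23 below), against 0.01 over all genes, and it was 0.04 both for the 31 members that overlap another gene and for the 54 that do not. For 75 of the 85 (88.2%) the 95% interval of the difference lay within 1.5-fold in either direction, which held for 75.5% of all genes tested. The 10 with wider intervals were Ndufa3, Ndufb1, Cox5a, Cox6a2, Cox6b1, Cox6b2, Cox7a2, Cox7a2l2, Atp5mk and Atp5pd. The sign of the median changed with 1 library: it was -0.04 without ET replicate 1, 0.11 without ET replicate 3 and 0.07 without both of these and PF replicate 6. With left hippocampi alone it was 0.12, with 80 of 85 genes above 0, against 0.01 over all genes. In that fit 0 subunit genes were called (3.47% of 16115 genes were), and 2 had an unadjusted p below 0.05 (11.7% of all genes). In the same comparison, 1 of 8 thalamus and habenula markers was called higher in ET (Tnnt1, 1.60 ± 0.31, adjusted p = 0.0094, edgeR), and the sum of the oligodendrocyte markers ran from 269434 to 349203 normalized counts in ET and from 197182 to 270137 in PF. The part of these cells in the subunit values was not tested.

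Complex I subunits had a median log2 fold change of 0.05 in ET against PF, with 31 of 38 above 0. Among the core subunits, Ndufs1, which carries iron-sulfur clusters of the electron path, had 2712, 2134, 2500.2 and 2424 normalized counts in ET and 2426, 2550.2, 2149.6, 2449.5 and 2255 in PF. The groups overlapped, with a log2 fold change of 0.05 ± 0.08 (SE) and a 95% interval from -0.13 to 0.23. Ndufv1, which binds NADH and FMN, differed by 0.08 ± 0.08. Ndufv2, Ndufs3, Ndufs7 and Ndufs8 differed by between 0.03 and 0.07, each with an adjusted p of 0.90 or more (edgeR). The largest difference in complex I was in Ndufb4, an accessory subunit of the membrane arm, with a mean of 198 ± 21.8 (SD, n = 4) normalized counts in ET and 168 ± 30.3 (SD, n = 5) in PF. Its log2 fold change of 0.24 ± 0.14 had the smallest adjusted p of the 85 genes (0.59, edgeR), and the lowest PF value, 124 in replicate 6, lay below all others.

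The 4 subunits of complex II, which is wholly encoded in the nucleus, differed between ET and PF by between -0.03 and 0.05 on the log2 scale. Sdha had means of 3897 ± 128 (SD, n = 4) in ET, 3883 ± 113 (SD, n = 5) in PF and 3936 ± 112 (SD, n = 5) in AD. Its 95% interval for ET against PF was -0.11 to 0.12, and that for Sdhd, a membrane anchor, was wider at -0.27 to 0.35. In complex III, 7 of 8 genes were above 0 with a median of 0.07. Uqcrfs1, the Rieske iron-sulfur protein, differed by 0.02 ± 0.09, and the core proteins Uqcrc1 and Uqcrc2 by 0.11 ± 0.10 and -0.03 ± 0.09. Uqcrh, the hinge protein that docks cytochrome c, had 1161, 1163, 868 and 893 normalized counts in ET and 852, 897, 1032, 869.9 and 884 in PF. ET replicates 1 and 3 were the highest of these values, and the difference was 0.17 ± 0.11.

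Complex IV was the most variable of the 5, with a median log2 fold change of 0.00 in ET against PF, a median SE of 0.17 and 11 of 17 intervals within 1.5-fold. Among the ubiquitous subunits, Cox5b (which binds zinc) differed by -0.01 ± 0.16, Cox6a1 by 0.00 ± 0.12, Cox7c by 0.06 ± 0.10, Cox6c by -0.10 ± 0.20 and Cox4i1 by -0.12 ± 0.19. The extremes of all 85 genes included Cox6b1 at -0.82 ± 0.59 and Cox5a at -0.72 ± 0.50 on the low side, and Cox7a2 at 0.26 ± 0.20 and Cox7a2l2 at 0.27 ± 0.15 on the high side. Their 95% intervals all included 0. In complex V, 13 of 18 genes were above 0 with a median of 0.04. The alpha subunit and the catalytic beta subunit of the F1 head, Atp5f1a and Atp5f1b, were at 10548 ± 862 and 11830 ± 1520 (SD, n = 4) in ET and 10058 ± 167 and 11547 ± 707 (SD, n = 5) in PF. Their differences were 0.07 ± 0.06 and 0.04 ± 0.09, and that of the gamma subunit Atp5f1c was 0.06 ± 0.08. For Atp5po, in the peripheral stalk, the difference was 0.04 ± 0.09. The c-ring genes Atp5mc1, Atp5mc2 and Atp5mc3 differed by 0.08 ± 0.12, -0.08 ± 0.22 and 0.06 ± 0.10, and the inhibitor Atp5if1 by 0.02 ± 0.11. Atp5mk, a small membrane subunit, had the largest difference of any member at -1.35 ± 0.81, with an interval from -3.16 to 0.46.

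**Figure D3:**
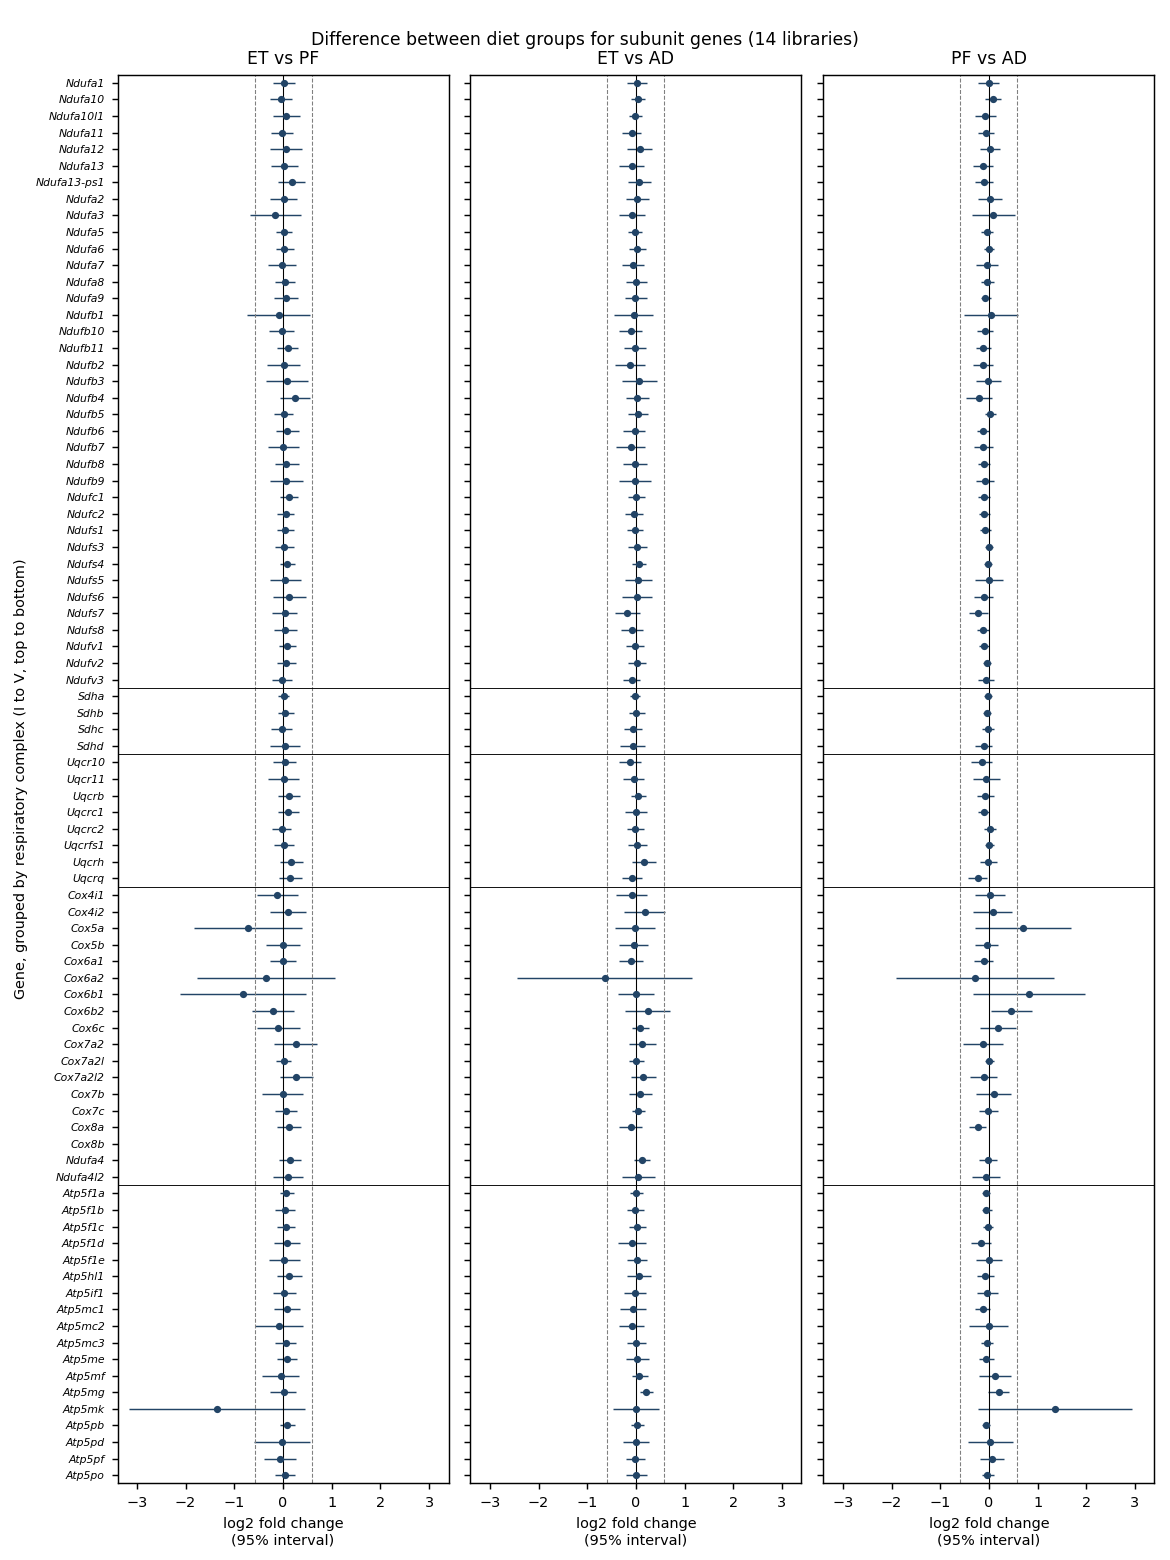
Log2 fold change (points) with 95% interval (bars) of 84 of the 85 tested genes in ET against PF, ET against AD and PF against AD, from edgeR fits of the final 4, 5 and 5 libraries, with genes grouped by complex and dashed lines at 1.5-fold. Most intervals lie inside the dashed lines (75, 82 and 79 of all 85), and the widest belong to Atp5mk, Cox6a2, Cox6b1 and Cox5a. Cox8b was not tested.

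ET and AD differ in ethanol as well as in the form and amount of food. No subunit gene was called (0.0127% of 15749 genes were, at an adjusted p below 0.05 and equally at the study's threshold), and DESeq2 called 0. At an unadjusted p below 0.05 there was 1 of 85 by edgeR, beside 2.74% of all genes, and 1 of 86 by DESeq2, beside 1.43%. This gene was Atp5mg, a membrane subunit of complex V, with 921, 763, 816 and 836 normalized counts in ET and 714, 710.2, 702, 758 and 719 in AD. All ET values lay above all AD values, with a log2 fold change of 0.21 ± 0.06 and an interval from 0.08 to 0.34, and the adjusted p was 1.0 (edgeR). PF libraries had 797, 803, 781, 685 and 1087, so that 4 of 5 also lay above the AD values. The median over the 85 genes was 0.00, as over all genes (0.00), with 42 above 0 and 43 below. Without ET replicate 1 it was -0.07, and without ET replicate 3 it was 0.07. For 82 of the 85 (96.5%) the 95% interval lay within 1.5-fold, beside 82.0% of all genes. Cox6a2 was the lowest of the 85 at -0.64 ± 0.81, then Ndufs7 at -0.18 ± 0.12 and Ndufb2 at -0.12 ± 0.14. Cox6a2 met the mean count minimum only through AD replicate 6 (51.9), which is among the AD libraries compared here. Its other AD values in the final set ran from 3.7 to 11.8, beside 3.34 to 18.4 in ET. Its difference was above 0 under 2 of 19 settings, and ran from -1.13 to 0.84 over the 19. Cox4i2, Atp5mg and Cox6b2 were the highest, with Cox6b2 at 0.24 ± 0.21.

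PF and AD, both without ethanol, differ in diet. No subunit gene was called at an adjusted p below 0.05 (5.17% of 15960 genes) or at the study's threshold (2.05%), and DESeq2 called 0. At an unadjusted p below 0.05, 1 gene was higher and 4 were lower by edgeR. Together these were 5 of 85, beside 16.4% of 15960 genes in both directions. By DESeq2, 7 of 83 were lower, beside 4.12% of 24940 genes, and 0 were higher. That share covers lower genes only, and DESeq2 was run without the low-count filter. The median log2 fold change was -0.04, with 62 of 85 below 0, against 0.00 over all genes, and 79 of 85 intervals (92.9%, beside 80.2% of all genes) lay within 1.5-fold. Of genes that overlap another, 7.11% were called, and of those that do not 2.37%. The members' median was -0.02 for the 31 with an overlap and -0.05 for the 54 without. The medians by complex were -0.07 for I, -0.03 for II, -0.06 for III, -0.01 for IV and -0.03 for V. This comparison shares its PF libraries with ET against PF. Markers of other cell types moved in it as well. All 3 red blood cell markers were called lower in PF (Hbb at -0.78 ± 0.17, Hba-a1 at -0.82 ± 0.19 and Hba-a2 at -0.88 ± 0.21), and their sum ran from 3909 to 8727 normalized counts in PF and from 9057 to 12877 in AD. Of 6 oligodendrocyte markers, Mag was called lower (-0.40 ± 0.10), and the sum of the 6 ran from 197182 to 270137 in PF and from 231034 to 328968 in AD. Of 8 thalamus and habenula markers, only Tnnt1 was called, lower in PF (-1.80 ± 0.27). The sum of the 8 ran from 1295 to 1886 in PF and from 1585 to 1813 in AD. The part of these cells in the subunit values was not tested.

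The 4 that were lower at an unadjusted p below 0.05 were Cox8a, Uqcrq, Ndufs7 and Ndufb6. Cox8a, the ubiquitous form of the smallest complex IV subunit, had 2273, 2012, 1975, 2095 and 1721 normalized counts in PF and 2398, 2128, 2236, 2374 and 2668 in AD. The groups overlapped in 1 PF library, and the difference was -0.23 ± 0.08 (adjusted p = 0.15, edgeR). Uqcrq, a small subunit of complex III, had 618, 514, 603, 579 and 726 in PF and 731, 717, 618, 713 and 789 in AD. PF replicate 6 lay among the AD values and AD replicate 3 among those of PF, both from right hippocampi, and the difference was -0.23 ± 0.09 (adjusted p = 0.21, edgeR). Ndufs7, a complex I subunit with the last iron-sulfur cluster before ubiquinone, differed by -0.22 ± 0.09, from 607 ± 61.8 (SD, n = 5) in PF and 705 ± 78.4 (SD, n = 5) in AD. Ndufb6 differed by -0.12 ± 0.05. The gene that was higher was Cox6b2, the testis-enriched form of subunit 6b, at 26.4, 20.0, 30.4, 28.4 and 27.1 normalized counts in PF and 18.2, 23.6, 15.0, 22.5 and 16.3 in AD. Its difference was 0.46 ± 0.19 (adjusted p = 0.18, edgeR).

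Calls appeared in PF against AD when libraries were taken out. With left hippocampi alone, 3 PF against 4 AD, 4 subunit genes were called lower at an adjusted p below 0.05 (1.16% of all genes were) and 30 of 85 were lower at an unadjusted p below 0.05 (8.56% of all genes), with a median of -0.14. The 4 were Uqcrq at -0.38 ± 0.07 (adjusted p = 0.014, edgeR), Ndufs7 at -0.37 ± 0.07 (0.024), Ndufa7 at -0.26 ± 0.06 (0.037) and Atp5mc2 at -0.33 ± 0.07 (0.043). Uqcrq in these left hippocampi was 514, 603 and 579 in PF and 731, 717, 713 and 789 in AD, with no overlap. It had the smallest adjusted p of the members in this fit, so the lack of overlap is not a separate result. Without PF replicate 6, a right hippocampus, 2 genes were called lower (1.9% of all genes): Uqcrq at -0.30 ± 0.08 (adjusted p = 0.038, edgeR) and Atp5pd, a stalk subunit of complex V, at -0.28 ± 0.07 (0.033). At an unadjusted p below 0.05, 14 were then lower (8.96% of all genes), and the median was -0.08. The right hippocampi of the final set were PF replicates 1 and 6 and AD replicate 3, and side, with 2 PF and 1 AD library, could not be compared within the right. Of the genes called in these fits, Uqcrq, Ndufs7 and Atp5mc2 each overlap another gene in the GRCr8 annotation, and Ndufa7 and Atp5pd do not. Cox8a, which was not called, overlaps one as well, and 31 of the 86 do.

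PF replicate 6, from a male, stood apart in a set of genes. In it, 8 of the 86 genes (9.30%) were more than 1.5-fold above every other PF library, beside 0.421% of 15911 genes with a mean count of 10 or more, and no other library had more than 3 such members. The 8 were Ndufa3, Ndufb1, Cox5a, Cox6b1, Cox7b, Atp5mc2, Atp5mk and Atp5pd. Atp5mk had 181 normalized counts there, against 24.3, 16.5, 20.6, 14.7 and 19.3 in the other PF libraries. The only other library far from this range was ET replicate 2, also a right hippocampus of a male and left out by the study, with 100.1, while all remaining ET and AD libraries lay between 16.1 and 24.6. The other right hippocampi, PF replicate 1 from a female and AD replicate 3 from a male, were at 24.3 and 18.7. Cox6b1, which joins the monomers of complex IV, had 163 in PF replicate 6, 70.3 in ET replicate 2 and 25.5 to 36.8 in the rest. Cox5a read 294 and 103 in these libraries and 52.1 to 93.5 elsewhere. Among 14617 genes with a mean count of 20 or more, Atp5mk, Cox6b1 and Cox5a ranked 1, 2 and 7 by how far PF replicate 6 exceeded the highest other PF library, and the ribosomal protein genes Rps24, Rps29 and Rpl24 ranked 3, 4 and 6.

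The same library was the lowest of all 17 for several others. Cox8a was at 1721 (1770 to 2668 elsewhere), Cox7a2 at 28.1 (38.9 to 62.2), Ndufb4 at 124 (159 to 225) and Cox7a2l2 at 815 (970 to 1555). Of the negative differences in ET against PF, the 3 of greatest size (Atp5mk, Cox6b1 and Cox5a) are thus genes in which 1 PF library was far above the other 4. With the remaining PF libraries at 14.7 to 24.3, Atp5mk in ET (16.1 to 24.6) lay in the same range. Atp5mk, Cox6b1, Cox5a, Cox7a2 and Ndufb1 had mean counts between 27.9 and 84.3, so their values are less certain than those of abundant members. Short genes with near-identical copies can lose reads at the mapping quality minimum that was used. Whether these genes have such copies was not examined, and the part of copies in their counts was not tested.

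**Figure D4:**
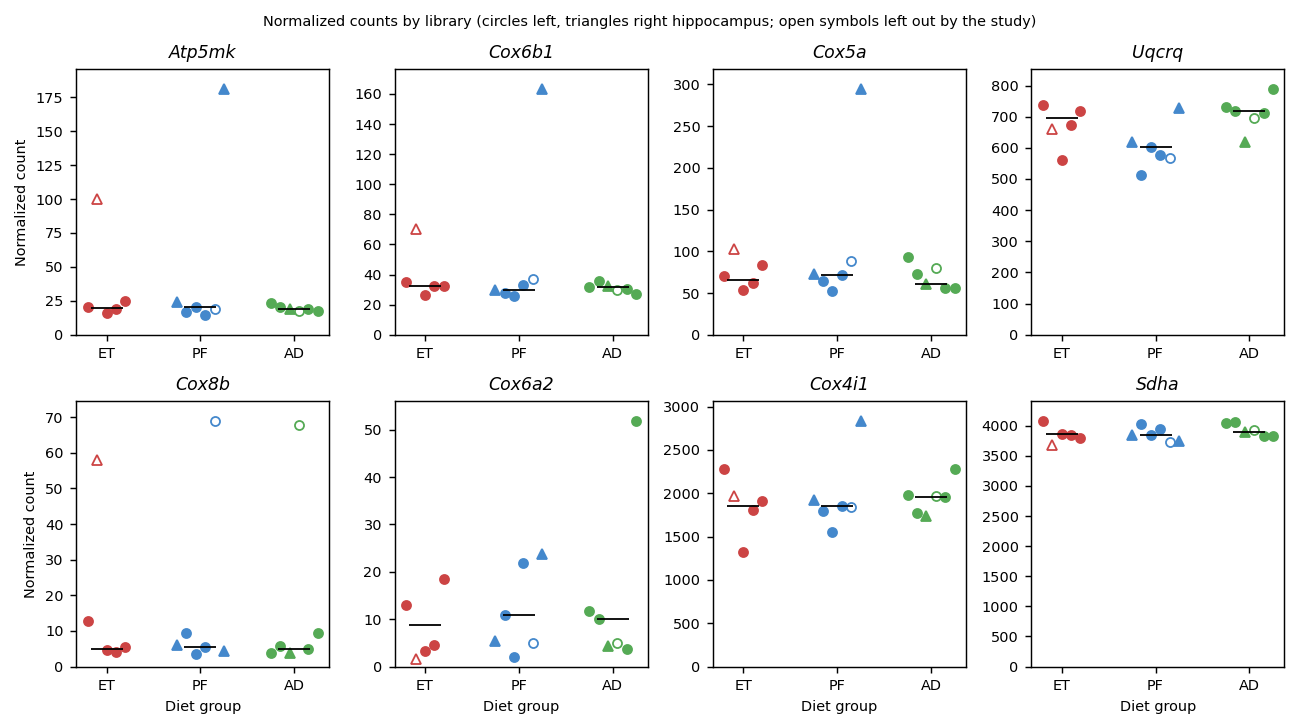
Normalized counts of 8 genes in each library (circles left, triangles right hippocampus, open symbols left out by the study), with the median of the final libraries of each diet as a bar. PF replicate 6 is far above the other PF libraries for Atp5mk (181), Cox6b1 (163) and Cox5a (294), Cox8b is high in the 3 open symbols (58.1, 69.0 and 67.9), and Sdha stays between 3674 and 4084.

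Some subunits have tissue-restricted forms, whose values are given here gene by gene. Cox8b, a form of subunit 8 known from heart and skeletal muscle, had 3.49 to 12.8 normalized counts in the 14 final libraries, and 58.1, 69.0 and 67.9 in ET replicate 2, PF replicate 11f6 and AD replicate 4. These are the libraries with choroid plexus markers of 127894, 138218 and 150596 normalized counts in sum. Among the 14, the 3 highest values of Cox8b were 12.8 (ET replicate 1), 9.51 (PF replicate 2) and 9.30 (AD replicate 6), and the choroid plexus markers in these were 20939, 23176 and 5385. Cox8b reached the mean count minimum of 10 only through these libraries, since its mean over the 14 final ones was 6.05 counts, so its high values there are tied to its choice. The part of choroid plexus tissue in Cox8b was not tested. Cox8a, the ubiquitous form, was at 1988, 2342 and 2501 in the 3 left-out libraries, within its range in the others. Cox6a2, the muscle form of subunit 6a, ran from 1.62 to 51.9 with its highest value in AD replicate 6, the library with pineal markers, and 23.8 as the next (PF replicate 6). Without AD replicate 6 the mean count of Cox6a2 was 9.31, below the minimum of 10, so it too was taken in through the library in which it was high. The part of pineal tissue in this value was not tested. Its ubiquitous counterpart Cox6a1 was at 3383 in AD replicate 6 and 2211 to 3354 elsewhere. Cox4i2, the form of subunit 4 known from lung, ran from 21.5 to 45.7, and Ndufa4l2, an inducible relative of Ndufa4, from 36.5 to 56.9. In ET against PF, Cox4i2 and Ndufa4l2 both differed by 0.11, with intervals of -0.26 to 0.48 and -0.20 to 0.42, and the interval for Cox6a2 was wider, at -1.77 to 1.06.

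Genes that build, regulate or feed the complexes were taken as lists for comparison, and their counts stand beside the 4.13% of all genes called in ET against PF and the 5.17% called in PF against AD. Of 44 assembly factors tested, 1 was called in ET against PF and 2 in PF against AD, with a median log2 fold change of 0.00 in each. Cox20, which helps to mature a mitochondrially encoded subunit of complex IV, was lower in ET than in PF by -0.45 ± 0.10 (adjusted p = 0.037, edgeR) and higher in PF than in AD by 0.64 ± 0.09 (0.0005). Cox11, a copper chaperone of complex IV, was higher in PF than in AD by 0.19 ± 0.06 (0.046). Of 18 regulators of mitochondrial biogenesis tested, Tfb1m and Slirp were called in both comparisons with PF. Tfb1m, which methylates mitochondrial ribosomal RNA, was at -0.38 ± 0.07 in ET against PF and 0.40 ± 0.05 in PF against AD, and Slirp, which stabilizes mitochondrial messenger RNA, at -0.39 ± 0.09 and 0.48 ± 0.06. Both overlap another annotated gene, and these pairs of values share the PF libraries. None of 25 citrate cycle and electron carrier genes was called in any diet comparison, with medians of 0.05, 0.01 and -0.02. Of 76 mitochondrial ribosomal proteins, 3 were called lower in ET than in PF and higher in PF than in AD, while the median of the list was 0.05 and -0.04. Mrpl47 differed by -0.50 ± 0.10 and 0.62 ± 0.08 and overlaps another gene. Mrpl28 and Mrpl53 are among the 39 genes with counts in PF alone: they had 70.6 to 98.2 and 52.3 to 66.8 normalized counts in the PF libraries of the final set and 0 in all ET and AD libraries. Of 86 cytosolic ribosomal proteins, Rpl35 was called lower and Rpl30 higher in ET than in PF, with a median of 0.07, and Rpl35 was higher in PF than in AD. Rpl35 and Rpl30 both overlap another gene. In ET against AD, no gene of any of these lists was called. The mitochondrial ribosomal RNAs mt-Rnr1 and mt-Rnr2 differed by -0.16 ± 0.09 and -0.14 ± 0.10 in ET against PF, with adjusted p of 0.62 and 0.71 (edgeR).

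Sex was compared in ET and PF, since sex-linked transcripts went against the labels of 2 AD libraries and of none of the others. In males against females with diet as a covariate, 0 of 85 genes were called by edgeR (0.0436% of all genes were) and 0 by DESeq2. At an unadjusted p below 0.05, 4 were higher and 2 lower in males by each tool, beside 1.87% of all genes by edgeR and 0.926% by DESeq2. Cox7a2l2 and Uqcrh were the lower ones, at -0.36 ± 0.11 and -0.23 ± 0.08. The higher ones were Cox6a2 at 1.29 ± 0.53, Cox5a at 0.99 ± 0.41, Cox6b1 at 1.12 ± 0.49 and Atp5mk at 1.53 ± 0.68, all with an adjusted p of 1.0 (edgeR). PF replicate 6, a male, held the highest value of each of these 4 in the fit, and without it no gene was higher at an unadjusted p below 0.05. The interaction of sex and diet called no gene (0.0% of 16484), with 2 subunit genes at an unadjusted p below 0.05, Atp5hl1 and Uqcrh, beside 1.4% of all genes, and 1 of 86 by DESeq2, beside 0.556%. Of the 85 intervals of the interaction, 19 (22.4%) lay within 1.5-fold, beside 39.6% of all genes, so for the others an interaction above 1.5-fold lay within the interval.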

How the data were processed

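Stranded mRNA libraries of 17 hippocampi were sequenced from both ends, with 3 technical replicates of each. The authors trimmed reads with fastp, mapped them to mRatBN7.2 with Bowtie2 2.4.2 and counted fragments on exons with featureCounts 2.0.1 at a minimum mapping quality of 10, and a read could be assigned to more than 1 feature. The annotation release and strand setting are not given in the sources used here. The deposited values are expected counts, averaged by the authors over the technical replicates, so that 53.3% were whole within 0.001. Averages were rounded to whole numbers here.

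Diet groups were compared in pairs in edgeR 4.0.16 (R 4.3.3) by its quasi-likelihood test after filterByExpr and TMM scaling, with p-values adjusted by the Benjamini-Hochberg method over all genes tested and a threshold of 0.05. Standard errors are Wald errors of the log2 fold change, not below the Poisson error, and 95% intervals use the t distribution of the fit. Normalized counts are TMM-scaled over the 17 libraries. Since transcript lengths were not at hand, levels were not compared between genes. Replicates are separate animals of 1 litter per diet, so p-values measure the spread between littermates. Over 40 pairs of libraries within a diet, the smallest chi-square per gene was 9.11, so none was within sampling noise of another.

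The alternatives were DESeq2 1.42.0, other scalings, no filter, sums of technical replicates, all 17 samples, 1 fit of the 3 diets, sex as a covariate, left hippocampi alone, a replicate block, the study's threshold and leaving out each replicate. DESeq2 was run without the low-count filter, so its shares of all genes cover more genes than those of edgeR. On simulated counts for ET against PF (200 changed genes in each run), edgeR recovered 112 genes changed 1.5-fold of 15908 tested and 183 changed 2-fold of 15925. The members and gene lists were chosen with earlier results of these data known. The genes named were those called (none), the 3 highest and 3 lowest in each diet comparison, a set of core subunits and isoform pairs, and the genes next to the count minimum. Further genes named for standing apart in PF replicate 6, for going against the common order or for an unadjusted p below 0.05 were chosen after their values were seen. A gene is not reported by name here and is left out of the figures. The split of genes by overlap in GRCr8, and the count of genes confined to 1 diet, were added after seeing the data. Analyses used Python 3.11.15, numpy 2.4.6, pandas 2.3.3, scipy 1.17.1 and matplotlib 3.10.9.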

Additional observations from a re-analysis of the deposited data

Results flagged for a closer look

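Among the named genes and the subunit share, 129 sets of 4 or 5 libraries were searched for a highest or lowest value far from the rest (Dixon's criterion), and 8 (6.2%) met it, where chance gives about 1 in 20. Of these, 5 were high values in PF replicate 6, which had normalized counts of 762 for Atp5mc2, 181 for Atp5mk, 2837 for Cox4i1, 294 for Cox5a and 163 for Cox6b1. AD replicate 6 was high for Cox6a2 at 51.9, and this gene met the mean count minimum only through that library. PF replicate 3 was low for Uqcrc1 at 2229, and AD replicate 3 was low for Ndufv1 at 2019.8.

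In the 3 libraries that the study did not use in its final comparisons, 1 of the 86 genes was more than 2-fold above the highest of the 14 used: Cox8b, with 58.1 normalized counts in ET replicate 2, 69.0 in PF replicate 11f6 and 67.9 in AD replicate 4. The highest of the 14 was 12.8. Cox8b met the mean count minimum only through the left-out libraries, so that its being high in them was fixed by the choice of genes.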

How the results depend on the processing

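No alternative gave a called subunit gene in ET against PF or ET against AD (0 in each direction), nor for sex or the interaction of sex and diet (0 over 13 alternatives each). In PF against AD, members called lower were 4 with left hippocampi only, 2 without PF replicate 6 (leaving out each replicate gave 0 to 2) and 2 without ET replicates 1 and 3 and PF replicate 6, the last chosen after seeing the data and here the same fit as without PF replicate 6. The median log2 fold change in PF against AD was -0.14 with left hippocampi only and -0.08 to -0.02 when each replicate was left out. It ran from -0.04 to 0.11 in ET against PF and from -0.07 to 0.07 in ET against AD when each replicate was left out, with ET replicates 1 and 3 at the ends. With left hippocampi only it was 0.12 when ET was set against PF, and -0.02 against AD. Apart from the fit without ET replicate 1 it was above 0 in ET against PF under all other settings. The causes were not tested. The calls in PF against AD after leaving out libraries are of Uqcrq, Ndufs7, Ndufa7, Atp5mc2 and Atp5pd. The 118 differences of named genes were recomputed 2314 times under the alternatives, of which 5 became called, all in PF against AD and with 1 of them a repeat of the fit without PF replicate 6, and 301 had the other sign, none of these called.

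With the replicate number as a block, 0 members were called in each diet comparison, and the medians were 0.07, 0.00 and -0.03. The calls over all genes went from 664 to 359 in ET against PF, from 2 to 2 in ET against AD and from 825 to 718 in PF against AD. Samples that share a number are different animals, and the mean correlation of their deviations was 0.30 (2 pairs), -0.05 (3 pairs) and -0.03 (4 pairs), with 2 of 4, 1 of 6 and 0 of 8 samples correlating best with their own number. The mean over other pairs was -0.03, 0.01 and 0.01. PF replicate 11f5, which carries no number, was not in these fits, and leaving it out without a block gave 549 calls in ET against PF and 694 in PF against AD. No block could be fitted for sex or its interaction with diet. Over all genes, calls in ET against AD were 11 by DESeq2 against 2, 6 with all 17 samples, 5 in 1 fit of the 3 diets and 4 without ET replicate 1 or ET replicate 4. In the interaction of sex and diet, 1 gene, no subunit, was called without ET replicate 3 against 0. With 4 or 5 libraries a group, differences smaller than the intervals given may be missed, and for genes with mean counts under 100 depth limits the precision further.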
